A study of Drosophila melanogaster with 54 samples.

Results

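The genes described here encode the accessory gland and seminal fluid proteins of the fruit fly Drosophila melanogaster. They were chosen by symbol alone, as every gene of the authors' expression table whose name starts with Acp (accessory gland protein) or Sfp (seminal fluid protein) followed by a digit. The pattern took 47 of 13926 genes. Among them, Acp1 and Acp65Aa are adult cuticle genes by fly nomenclature and are described apart at the end, which leaves 45 seminal genes. All 47 passed the filter on low values, at least 1 TPM (transcript abundance scaled to the same total in every library) in at least 3 libraries.

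RNA was sequenced from whole 10-day-old males of 6 strains, each reared at 18, 25 and 29 °C, with 3 libraries in each of the 18 groups. A transgene for FLucDM-GFP was present in 5 strains. FLucDM-GFP is a firefly luciferase prone to misfolding that is joined to a fluorescent protein. Mito-FLucDM-GFP is directed mainly to mitochondria (Mito 2 copies, Mito 1 copy), NLS-FLucDM-GFP mainly to the nucleus (NLS 2 copies, NLS 1 copy) and Cyto-FLucDM-GFP mainly to the cytoplasm (Cyto 1 copy). The sixth strain is w1118, an isogenic control that has no such protein. The labels number the 3 libraries of a group without saying that they came from separate cultures, so the p-values rest on the spread between libraries, which may be technical. The sources used here give neither the promoter that drives the transgene, nor its place in the genome, nor the number of flies behind a library.

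The accessory glands are paired secretory organs of the male tract, and their main cells make most of the protein that a male transfers with sperm. In the mated female these proteins raise ovulation and egg laying, lower her readiness to mate again, build the mating plug and help keep sperm in storage. Many are short secreted peptides, and others are protease inhibitors, proteases or lectins. In RNA from whole flies, fewer gland cells, smaller glands and less RNA per cell cannot be told apart.

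Libraries of 1 group had a Pearson r across genes of 0.990 to 0.997. Each library held 11995 to 12158 genes at 1 TPM or more, and the read depth behind the values is unknown. Of 21 yolk, eggshell and oocyte genes, which mark females, 9 stayed below 1 TPM in every library, and the 21 together summed to 42.0 to 102 TPM, against 12516 to 28513 TPM for the 45 seminal genes. The highest female sum was in a Cyto 1 copy library at 29 °C, and no library of the other strains exceeded 58.8 TPM.

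Seminal genes were among the most abundant transcripts of the whole fly. Together they made up 1.25% to 2.85% of all TPM in a library, and 44 of the 45 reached 1 TPM in every library. There were 6 above a mean of 1000 TPM. Sfp87B averaged 3007 ± 954 TPM, Acp95EF 2912 ± 993 TPM and Sfp60F 2025 ± 547 TPM (SD, n = 54), and these 3 genes held 40.6% of the summed level. Acp98AB averaged 1317 ± 380 TPM, Acp53Ea 1097 ± 232 TPM and Acp54A1 1017 ± 532 TPM (SD, n = 54). The 6 genes together held 58.1% of the summed level, and 4 of them ranked within the 100 most abundant genes of the table.

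A further 20 genes averaged 100 to 1000 TPM. Among those with a known role, Acp36DE, a mating plug glycoprotein needed for sperm storage, averaged 455 ± 129.7 TPM, and Acp62F, a trypsin inhibitor, 325 ± 112 TPM (SD, n = 54). Acp26Aa, which encodes ovulin, the protein that stimulates ovulation, averaged 205 ± 85.8 TPM, and its neighbour Acp26Ab 433 ± 86.6 TPM (SD, n = 54). The others in this range ran from Acp53C14b at 982 ± 181 TPM, Acp33A at 765 ± 316 TPM and Acp53C14a at 705 ± 124 TPM to Sfp24C1 at 109.8 ± 18.3 TPM (SD, n = 54). Between 10 and 100 TPM lay 18 genes, among them the C-type lectin Acp29AB, which acts in sperm storage, at 53.8 ± 11.4 TPM, and the serpin Acp76A at 54.1 ± 18.6 TPM (SD, n = 54). Sfp79B was the lowest, at 4.37 ± 4.62 TPM (SD, n = 54), and was listed at 0 in 1 library.

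The genes are short and autosomal. By the BDGP6 annotation, 23 of the 45 lie on chromosome arm 2L, 8 on 2R, 8 on 3L, 6 on 3R and none on X, where 15.6% of the tested genes lie. Their median coding length was 99 codons (range 25 to 912, the longest being Acp36DE), against 409 codons for the tested protein-coding genes. At most 150 codons were found in 36 of 45 (80.0%), against 12.8% of the tested protein-coding genes. There were 5 clusters of neighbours with gaps of no more than 20000 bases, and they held 17 of the genes. The densest held Sfp24Ba, Sfp24Bd, Sfp24Bb and Sfp24Bc within 2605 bases of 2L (3667977 to 3670581). Another held Sfp53D, Acp53C14a, Acp53C14b, Acp53Ea and Acp53C14c within 7201 bases of 2R (16744295 to 16751495). A gene on the opposite strand overlaps 16 of the 45, and Sfp87B lies within svp on the same strand. These overlaps are of gene bounds, and shared exons were not looked for. The library kit named in the labels does not mark strand, so strand does not assign reads where such genes share sequence.

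The mean summed level of the seminal genes was lower at each warmer rearing temperature in every strain. The 45 genes together made up 2.74% ± 0.104 of all TPM at 18 °C, 2.05% ± 0.0291 at 25 °C and 1.41% ± 0.0955 at 29 °C in w1118 (SD, n = 3). In Cyto 1 copy the shares were 2.20% ± 0.0308, 1.65% ± 0.0643 and 1.27% ± 0.0284 at 18, 25 and 29 °C (SD, n = 3). In every strain, each library at 29 °C held a smaller share than each library at 18 °C. Mito 2 copies held 2.19% ± 0.355 at 18 °C, 2.11% ± 0.0666 at 25 °C and 1.40% ± 0.125 at 29 °C (SD, n = 3).

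**Figure D1:**
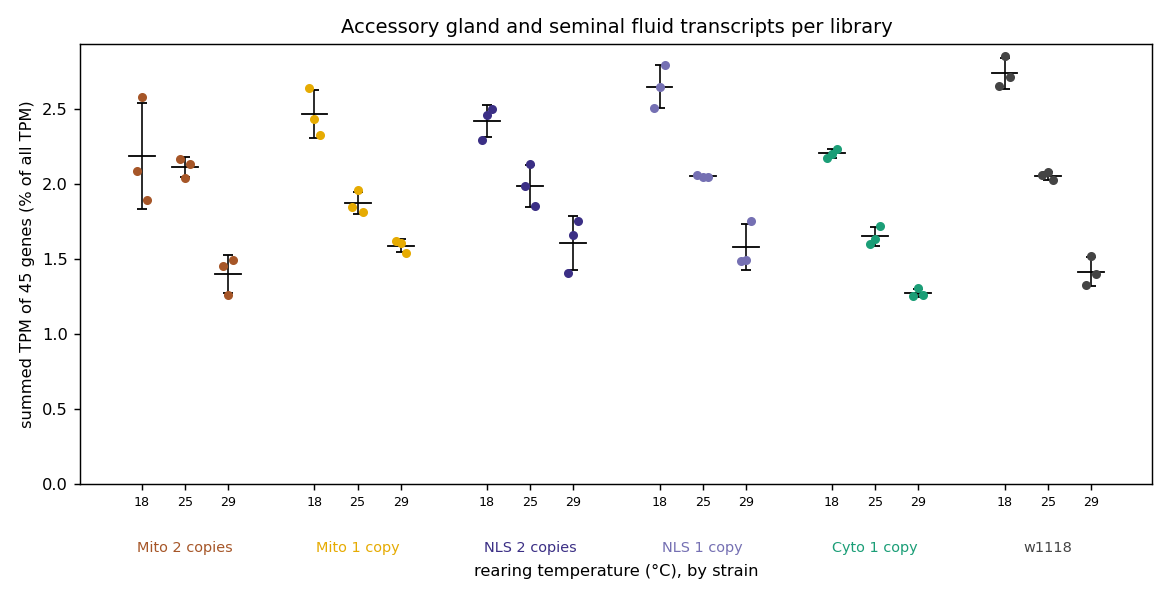
Summed TPM of the 45 seminal genes as a percentage of all TPM (vertical axis) in each of the 54 libraries, by strain and by rearing temperature in °C (horizontal axis). Points are libraries, long bars the mean of 3 and whiskers the SD. Values run from 1.25% to 2.85%, and in each strain all libraries at 29 °C lie below all libraries at 18 °C.

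Gene by gene, averaged over the 6 strains, 39 of the 45 fell at 29 °C relative to 18 °C and 5 rose, while 77.8% of all 12555 genes tested passed in this comparison, 34.9% lower and 42.9% higher (limma on log2(TPM + 1), Benjamini-Hochberg adjusted p under 0.05). The median log2 fold change was -0.61 for the seminal genes and 0.03 for all genes tested. In 24 of the 45, all 3 libraries at 29 °C lay below all 3 at 18 °C in each of the 6 strains, a pattern shown by 9.61% of all genes tested. At 25 °C relative to 18 °C, 25 fell and 11 rose, with a median of -0.21 and 64.1% of all genes called (32.4% lower, 31.8% higher). Mito 2 copies alone went the other way, with 13 higher and 7 lower and a median of 0.10. In that strain 33.5% of all genes were called, and 45% of those called were higher. In each of the other 5 strains 19 to 24 fell and 2 to 8 rose. Of all genes, 28.1% to 33.9% were called in these strains, and 41.6% to 66.3% of those called were higher. At 29 °C relative to 25 °C, 37 fell and 4 rose, with a median of -0.48 and 63.0% of all genes called (26.7% lower, 36.3% higher).

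The 3 most abundant genes all fell. At 29 °C Sfp87B ran from 1205 to 2412 TPM with a median of 1931, and at 18 °C from 3295 to 4489 TPM with a median of 4055 (18 libraries each). The 2 sets of libraries did not overlap, and the log2 change was -1.14 ± 0.04 (SE, adjusted p = 5.64e-29). Acp95EF, which encodes a peptide of 52 codons, ran from 1390 to 2519 TPM at 29 °C with a median of 1989, and from 3098 to 5099 TPM at 18 °C with a median of 4182. Here too no library at 29 °C reached the lowest at 18 °C (log2 -1.07, adjusted p = 1.09e-25). Sfp60F ranged over 950.1 to 1843 TPM at 29 °C and 2098 to 3018 TPM at 18 °C (log2 -0.90, adjusted p = 1.15e-23). Acp53Ea (log2 -0.61) and Acp98AB (log2 -0.43) fell less, and their ranges at the 2 temperatures overlapped.

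The steepest falls were in low to mid abundance genes of 2L. Sfp33A4 (2L, 11837243 to 11837486) stood at 11.6 to 24.8 TPM at 29 °C with a median of 16.3, and at 45.1 to 116 TPM at 18 °C with a median of 74.6. Its log2 change of -2.11 ± 0.07 (SE, adjusted p = 4.5e-27) ranked 11th from the lowest of 12555 genes, and it fell in all 6 strains by 1.94 to 2.42 on the log2 scale. Its neighbour Sfp33A2 (2L, 11837713 to 11838049) was the only seminal gene that did not pass, with 30.1 to 72.7 TPM at 29 °C and 30.04 to 61.7 TPM at 18 °C (log2 -0.01). Sfp24Bb, Sfp24Ba and Sfp24Bc fell by 1.74, 1.62 and 1.56 on the log2 scale, while Sfp24Bd, which lies between Sfp24Ba and Sfp24Bb, rose by 0.36 (adjusted p for Sfp24Bb = 9.66e-33). Direct neighbours in the Sfp33A and Sfp24B clusters thus had unlike temperature series.

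The genes with known roles in the mated female mostly fell. Acp26Aa (ovulin) ran from 84.6 to 188 TPM at 29 °C with a median of 121, and from 227 to 352 TPM at 18 °C with a median of 332, with no overlap (log2 -1.32). Acp26Ab, the gene next to Acp26Aa on the same strand, had the opposite sign, at 303 to 565 TPM and a median of 471 at 29 °C and 294 to 412 TPM and a median of 352 at 18 °C (log2 0.39, adjusted p = 5.35e-13). Acp36DE (log2 -0.84), Acp62F (log2 -0.95), Acp29AB (log2 -0.58) and Acp76A (log2 -0.39) were all lower at 29 °C.

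The rises were small and few. Acp32CD held 298 to 485 TPM at 29 °C with a median of 424, and 249 to 352 TPM at 18 °C with a median of 320.5, and rose by 0.40 ± 0.02 on the log2 scale (SE, adjusted p = 2.37e-20). It was the 1 seminal gene with all libraries at 29 °C above all at 18 °C in each of the 6 strains, a pattern shown by 9.81% of all genes tested. Sfp93F (log2 0.38), Acp54A1 (log2 0.38) and Sfp24Bd (log2 0.36) were higher on average, but not in every strain. In w1118 alone Sfp93F changed by -0.06, Sfp24Bd by -0.18 and Acp26Ab by -0.02, none past the threshold, and Acp54A1 fell by 1.28 on the log2 scale. In Cyto 1 copy alone Sfp93F, Sfp24Bd and Acp54A1 did not pass either. The log2 changes of these genes therefore average strains that differ.

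**Figure D2:**
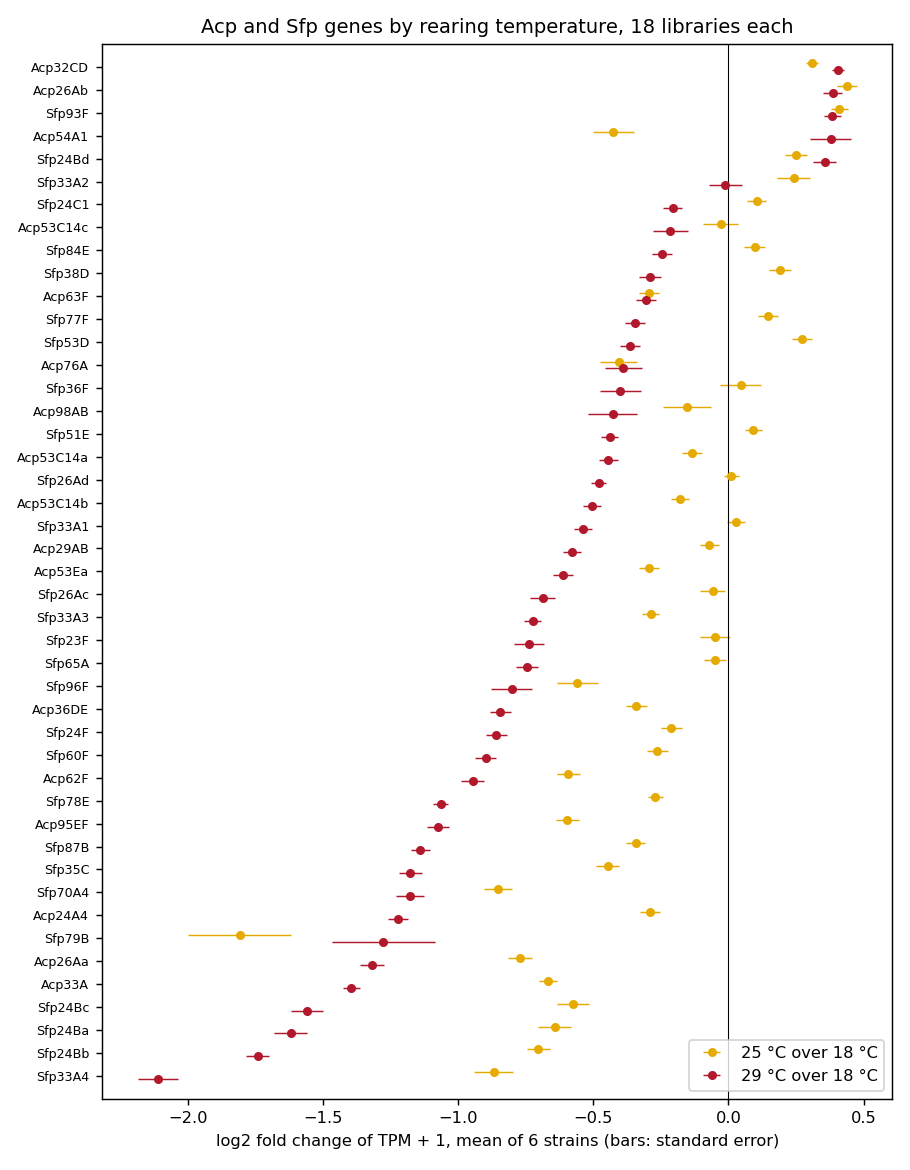
Log2 fold change of TPM + 1 (horizontal axis) for each of the 45 seminal genes (vertical axis, ordered by the 29 °C value), 25 °C over 18 °C and 29 °C over 18 °C, as the mean of 6 strains with 18 libraries at each temperature. Points are estimates and bars the standard error. At 29 °C, 39 genes lie below 0 past the threshold, down to -2.11 for Sfp33A4, and 5 lie above 0, up to 0.40 for Acp32CD.

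The shape of the series also varied by strain. A mean that fell at both steps was seen in 34 genes in w1118, 33 in NLS 1 copy, 28 in Cyto 1 copy, 27 in NLS 2 copies, 26 in Mito 1 copy and 17 in Mito 2 copies. In Mito 2 copies 23 genes had their highest mean at 25 °C, against 8 to 11 genes in the other 5 strains. All 6 strains shared a fall at both steps in 14 genes. These are counts of means of 3 libraries, and the difference in shape was not tested. Shapes were not counted over all genes tested, so whether other genes had the same shapes is not known.

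Strain differences from w1118 ran in both directions. These 5 comparisons share the w1118 libraries, and each takes 9 libraries against 9. Of the 45 genes, 10 rose and 13 fell in Mito 2 copies (55.9% of all genes tested passed, 19.6% higher and 36.3% lower), 17 rose and 12 fell in Mito 1 copy (63.2%, 26.6% higher and 36.7% lower), and 17 rose and 14 fell in NLS 2 copies (67.1%, 26.1% higher and 41.0% lower). In NLS 1 copy 21 rose and 11 fell (68.8%, 30.5% higher and 38.3% lower). In Cyto 1 copy 9 rose and 25 fell (66.4%, 31.1% higher and 35.3% lower). The median log2 difference was -0.06, 0.0016, 0.07, 0.13 and -0.22 in that order, against -0.05 to -0.01 for all genes tested. These averages hold unlike temperatures. In Mito 2 copies 5 were higher and 25 lower at 18 °C (38.1% of all genes called), whereas 16 were higher and 3 lower at 25 °C (37.5%), and 29 °C gave 7 higher and 10 lower (34.1%). In NLS 2 copies 7 were higher and 18 lower at 18 °C (46.1%), whereas 13 were higher and 6 lower at 25 °C (48.9%), and 29 °C gave 22 higher and 9 lower (52.7%). With median-ratio scaling, the split in NLS 2 copies was 21 higher and 11 lower. Under that scaling 68.5% of all genes were called, and 50.2% of those called were higher. The 21 female markers summed to 45.1 to 102 TPM in Cyto 1 copy and 42.0 to 51.5 TPM in w1118, and their part in the seminal gene differences was not tested.

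Averaged over temperatures, Sfp78E, Sfp23F, Sfp53D, Acp26Ab, Acp32CD and Sfp24F were higher than in w1118 in all 5 strains, past the threshold. The share of all genes tested that was higher in all 5 was not computed. At the lowest rearing temperature alone, the mean of Sfp78E was not above w1118 in any strain. Every Mito 2 copies, NLS 2 copies and Cyto 1 copy library there lay below all 3 of w1118. Sfp23F ran from 29.2 to 68.1 TPM in Mito 2 copies, 43.7 to 78.1 in Mito 1 copy, 28.8 to 71.8 in NLS 2 copies, 30.9 to 74.97 in NLS 1 copy and 32.8 to 60.5 in Cyto 1 copy, against 18.8 to 43.6 TPM in w1118. At each temperature every library of each of these strains lay above all 3 of w1118, and the log2 differences were 0.55 (Cyto 1 copy) to 0.83 (Mito 1 copy). Sfp53D differed by 0.29 to 0.54, Acp26Ab by 0.26 to 0.51, Acp32CD by 0.17 to 0.42 and Sfp24F by 0.20 to 0.58.

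Acp76A, the serpin, was on average higher than in w1118 in the Mito and NLS strains but not in Cyto 1 copy. Its 9 libraries per strain ran from 38.3 to 96.2 TPM (median 62.7) in Mito 2 copies, 40.6 to 87.2 (median 54.4) in Mito 1 copy, 53.6 to 76.0 (median 65.0) in NLS 2 copies and 54.02 to 90.3 (median 66.8) in NLS 1 copy. They ran from 31.1 to 46.8 TPM (median 32.2) in Cyto 1 copy and from 17.9 to 54.2 TPM (median 40.8) in w1118. It rose by 0.65 to 0.97 on the log2 scale in the Mito and NLS strains, with the largest adjusted p (limma) of 1.85e-07 in Mito 1 copy. In Cyto 1 copy the averaged difference was -0.05 and did not pass. At 1 temperature every Cyto 1 copy library lay above all 3 of w1118, and at 1 other temperature every one lay below. At 29 °C alone the difference in Mito 2 copies was -0.09.

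In all 5 strains Sfp24Ba, Sfp24Bb, Acp24A4, Acp29AB, Acp53C14c, Sfp36F and Sfp70A4 were lower than in w1118, past the threshold. The share of all genes tested that was lower in all 5 was not computed either. Acp29AB, the sperm storage lectin, differed by -0.44 to -0.22, and at each temperature every library of each strain lay below all 3 of w1118. Sfp70A4 differed by -0.73 to -0.29, Acp53C14c by -0.67 to -0.33 and Sfp36F by -0.77 to -0.24. Among the most abundant genes, Sfp60F was lower in Mito 2 copies (log2 -0.31), NLS 2 copies (-0.18), NLS 1 copy (-0.21) and Cyto 1 copy (-0.31). Sfp87B was lower in Mito 2 copies (log2 -0.36), NLS 2 copies (-0.20) and Cyto 1 copy (-0.19). Acp95EF passed only in the Cyto 1 copy comparison with w1118, at -0.42.

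The lowest gene, Sfp79B, stood at 0.341 to 9.56 TPM (median 1.05) in Cyto 1 copy and 0 to 5.28 TPM (median 2.07) in NLS 2 copies, against 0.653 to 19.7 TPM (median 9.33) in w1118. The ranges overlapped, and the log2 differences of -1.45 ± 0.27 in Cyto 1 copy and -1.42 ± 0.27 in NLS 2 copies passed the test (SE, adjusted p = 1.01e-05 and 1.36e-05). Mito 1 copy (-0.91) and NLS 1 copy (-0.89) passed too. Directions differed between strains for 5 genes. Acp53Ea rose in NLS 1 copy (log2 0.18) and fell in Cyto 1 copy (-0.14), and Acp53C14b rose in Mito 1 copy (0.13) and NLS 1 copy (0.21) and fell in Cyto 1 copy (-0.11). Acp98AB (0.30 and -0.30) and Sfp26Ac (0.19 and -0.26) rose in NLS 1 copy and fell in NLS 2 copies, with a rise of Sfp26Ac in Mito 1 copy as well (0.24). For Acp98AB leaving out 1 library ended the call in 5 of 18 fits in NLS 1 copy (adjusted p up to 0.147) and in 12 of 18 in NLS 2 copies (up to 0.0843). Sfp33A3 rose in NLS 2 copies (0.11) and fell in Cyto 1 copy (-0.40).

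**Figure D3:**
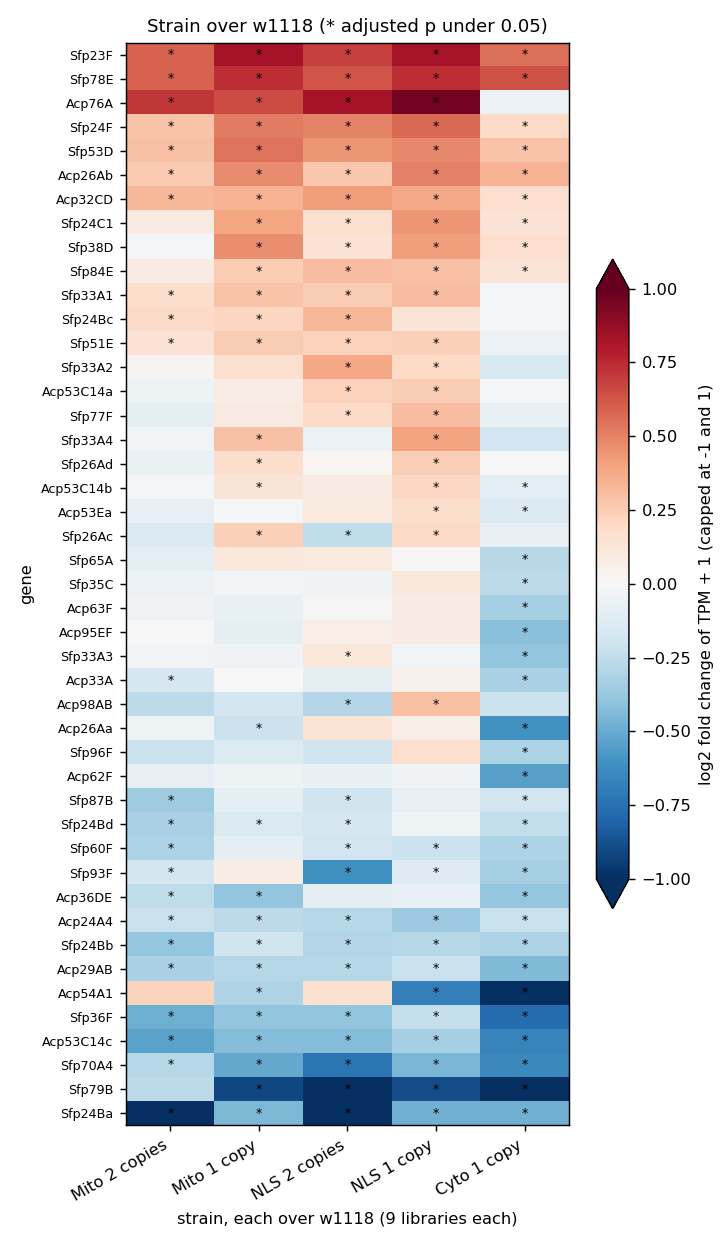
Log2 fold change of TPM + 1 over w1118 (colour, capped at -1 and 1) for each of the 45 seminal genes (rows, ordered by the mean over strains) in the 5 transgenic strains (columns), 9 libraries each. Asterisks mark adjusted p under 0.05. Sfp23F and Sfp78E are higher in all 5 columns, Acp76A in all but Cyto 1 copy, and Sfp24Ba is below the colour range in both 2-copy strains, at -3.48 in Mito 2 copies and -3.35 in NLS 2 copies.

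Averaged over temperatures, 2 copies of the transgene went with mostly small falls and 1 large one. Each comparison sets 1 strain against another, so copy number and other differences between the strains cannot be told apart. With 2 copies against 1 copy of Mito-FLucDM-GFP, 23 of the 45 genes fell and 4 rose, with a median log2 difference of -0.13 and 42.2% of all genes called (23.3% lower, 18.9% higher). With 2 copies against 1 copy of NLS-FLucDM-GFP, 13 fell and 2 rose, with a median of -0.10 and 28.1% of all genes called (15.4% lower, 12.8% higher). The medians of all genes tested were -0.02 and -0.01. Single temperatures were unlike. In the Mito pair none rose and 18 fell at 18 °C (8.93% of all genes called). At 25 °C the split turned, with 7 that rose and 3 that fell (19.2%), and 29 °C had 1 that rose and 24 that fell (41.3%). In the NLS pair 1 rose and 13 fell at 18 °C (12.6%), but 3 rose and 5 fell at 25 °C (10%), and 29 °C had 5 that rose and 6 that fell (18.8%). Testis and sperm genes, of which 27 of 33 rose and 1 fell in Mito 2 copies against Mito 1 copy and 8 rose and 1 fell in NLS 2 copies against NLS 1 copy, had the other direction, and their part in the seminal gene differences was not tested. The Mito and NLS pairs of strains share no library.

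Sfp24Ba (2L, 3667977 to 3668551) was the large one. Its 3 libraries held 22.1, 32.1 and 23.6 TPM at 18 °C in Mito 2 copies, against 148, 129 and 106 TPM in Mito 1 copy. At 25 °C they held 10.8, 7.85 and 12.7 TPM in Mito 2 copies, against 102, 109 and 87.1 TPM in Mito 1 copy, and at 29 °C 3.37, 2.08 and 4.83 TPM, against 55.4, 52.4 and 53.7 TPM. All libraries with 2 copies lay below all with 1 copy, even across temperatures.

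The NLS strains gave the same picture for Sfp24Ba. At 18 °C it held 26.4, 26.2 and 37.0 TPM in NLS 2 copies and 119.9, 122 and 127 TPM in NLS 1 copy. At 25 °C the values were 9.89, 9.20 and 10.6 TPM in NLS 2 copies and 97.1, 83.8 and 84.7 TPM in NLS 1 copy, and at 29 °C 3.70, 3.84 and 4.50 TPM against 58.1, 52.5 and 63.0 TPM. The log2 difference was -3.03 ± 0.09 for Mito (SE, adjusted p = 6.76e-29) and -2.87 ± 0.09 for NLS (adjusted p = 5.91e-28), 3rd and 4th from the lowest of 12555 genes in their comparisons. In w1118 it ran from 68.6 to 169 TPM, and both 2-copy strains were also far lower than that control (log2 -3.48 in Mito 2 copies and -3.35 in NLS 2 copies).

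The other genes of the cluster did not share this difference. Between Mito 2 copies and Mito 1 copy Sfp24Bd differed by -0.18, Sfp24Bb by -0.18 and Sfp24Bc by -0.02 on the log2 scale, and between NLS 2 copies and NLS 1 copy by -0.13, -0.01 and 0.20. Of these, Sfp24Bd and Sfp24Bb in the Mito comparison passed the test (adjusted p = 0.0117 and 0.0122). All 4 lie opposite Drgx, a gene at 2.85 TPM on average, which differed by -0.13 (Mito) and -0.08 (NLS). Among all genes tested, 24 were at least 2-fold lower with 2 copies in both forms, past the threshold, and 5 were at least 2-fold higher. All 24 lie on chromosome 2, with 15 on 2L and 9 on 2R, where 18.9% and 20.6% of the tested genes lie. Sfp24Ba was the only seminal gene among the 24. They include CG3513 and CG43165, which lie within 30000 bases of the Sfp24B cluster.

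**Figure D4:**
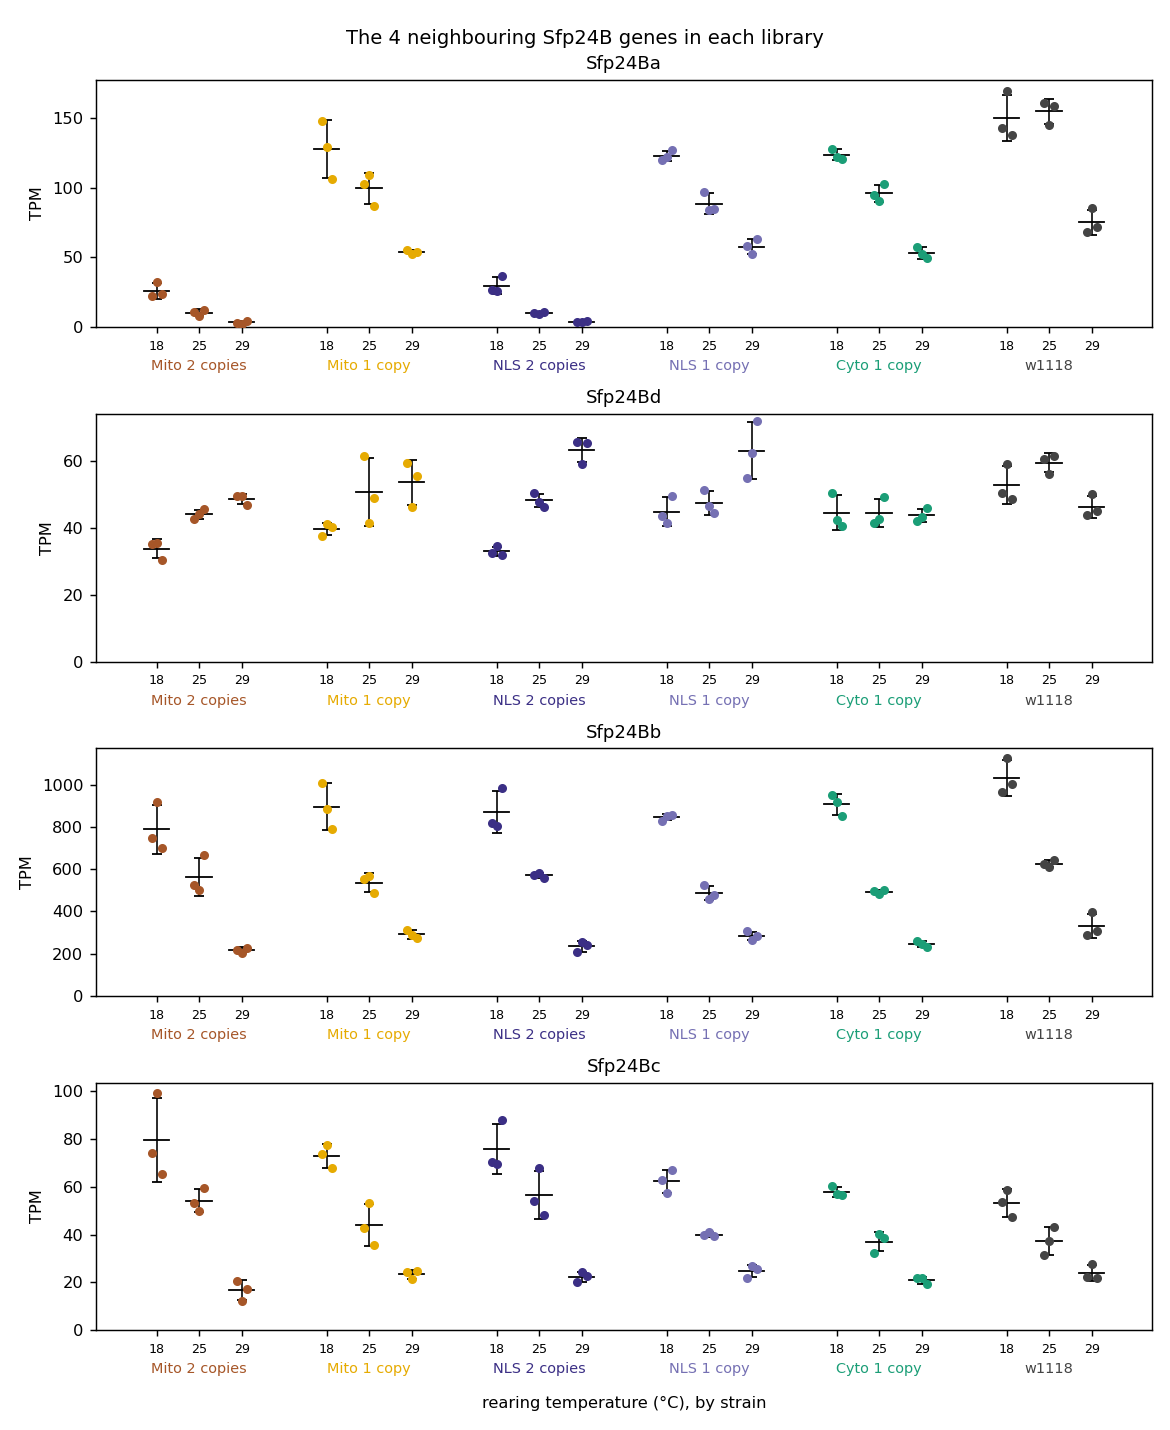
TPM (vertical axis) of Sfp24Ba, Sfp24Bd, Sfp24Bb and Sfp24Bc, in the order they lie on 2L, in each of the 54 libraries by strain and rearing temperature in °C (horizontal axis). Points are libraries, long bars the mean of 3 and whiskers the SD. Sfp24Ba stays at or below 37.0 TPM in both 2-copy strains and at or above 49.5 TPM at every temperature in the other 4, while the other genes of the cluster show no such gap.

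Other genes differed between the 2-copy and 1-copy strains by less. Acp54A1 rose by 0.52 on the log2 scale in Mito 2 copies against Mito 1 copy and by 0.84 in NLS 2 copies against NLS 1 copy. Acp98AB fell by 0.60 in NLS 2 copies against NLS 1 copy, and Sfp33A3 rose by 0.13, a call that ended in 8 of 18 fits with 1 library left out (adjusted p up to 0.0769). In Mito 2 copies against Mito 1 copy Sfp38D fell by 0.48, Sfp87B by 0.27 and Sfp60F by 0.21, and Sfp70A4 rose by 0.22. At 18 °C alone Sfp33A3 (-0.03) and Sfp70A4 (-0.15) had the opposite sign, as had Sfp87B (0.04) and Sfp60F (0.07) at 25 °C alone.

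At 1 copy each, the seminal genes were higher in the Mito and NLS strains than in the Cyto strain. In NLS 1 copy against Cyto 1 copy 38 of the 45 rose and 1 fell, with a median log2 difference of 0.30 and 32.1% of all genes called (9.51% higher, 22.6% lower). In Mito 1 copy against Cyto 1 copy 31 rose and none fell, with a median of 0.24 and 26.4% of all genes called (9.69% higher, 16.8% lower). The medians of all genes tested were -0.03 and -0.02. These 2 comparisons share the Cyto 1 copy libraries. Each form here is 1 strain, so form and other differences between the strains cannot be told apart. The 21 female markers summed to a mean of 59.5 TPM in Cyto 1 copy, 49.2 in NLS 1 copy and 51.7 in Mito 1 copy. The part of these markers was not tested. Of the 33 testis and sperm genes, none rose and 23 fell in NLS 1 copy against Cyto 1 copy, and 2 rose and 2 fell in Mito 1 copy against Cyto 1 copy, and their part was not tested.

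Acp26Aa (ovulin) held 331, 342 and 349.7 TPM at 18 °C in NLS 1 copy, against 239, 249 and 273 TPM in Cyto 1 copy. At 25 °C it held 187, 219 and 232 TPM in NLS 1 copy, against 107, 104 and 111 TPM in Cyto 1 copy, and at 29 °C 122, 147 and 123 TPM, against 87.9, 86.3 and 84.6 TPM. The libraries did not overlap at any temperature (log2 0.66 ± 0.06, SE, adjusted p = 6.95e-11). Acp76A had the largest difference in this comparison (log2 1.02, adjusted p = 4.05e-11). Of the most abundant genes, Acp95EF (log2 0.50), Acp98AB (0.52), Acp53Ea (0.32) and Acp54A1 (0.34) were higher in NLS 1 copy, and Acp24A4, which resembles Kunitz-type protease inhibitors, was the 1 gene that fell (-0.14). With quantile normalization or median-ratio scaling none of the 45 fell, and its call ended in 7 of 18 fits with 1 library left out (adjusted p up to 0.0893).

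In Mito 1 copy against Cyto 1 copy the largest rises were Acp54A1 (log2 0.72) and Acp76A (0.70), and Acp95EF (0.32) and Sfp60F (0.21) passed as well. Between Mito 1 copy and NLS 1 copy fewer genes differed, with 10 lower and 2 higher in Mito 1 copy, a median of -0.04 and 31.1% of all genes called (11.8% lower, 19.2% higher). Acp98AB (log2 -0.48), Acp76A (-0.32), Acp53Ea (-0.19) and Acp95EF (-0.18) were lower in Mito 1 copy, and Acp54A1 (0.38) and Sfp93F (0.21) were higher. At 29 °C alone Acp98AB differed by 0.16, and none of the 45 passed, with 4 at an unadjusted p under 0.05 (limma), where 3.44% of all genes were called.

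Whether the temperature difference itself depended on strain was tested as the change between 29 °C and 18 °C in a strain minus the same change in w1118. This interaction was positive for 15 and negative for 5 of the 45 genes in Mito 2 copies (15.5% of all genes called, 9.36% positive and 6.09% negative). It was positive for 13 and negative for none in Mito 1 copy (28.0%, 13.1% positive). It was positive for 19 and negative for 4 in NLS 2 copies (19.9%, 10.5% positive and 9.4% negative). In NLS 1 copy 6 were positive and 2 negative (25.3%, 9.77% positive and 15.5% negative). With quantile normalization they were 7 and 1, where 27.3% of all genes were called and 46.1% of those called were positive. In Cyto 1 copy 11 were positive and 2 negative (32.4%, 17.9% positive and 14.4% negative). With median-ratio scaling they were 4 and 2, where 32% of all genes were called and 35.5% of those called were positive. The median interaction ran from 0.08 in NLS 1 copy to 0.28 in Mito 2 copies, against -0.01 to 0.06 for all genes tested. Testis and sperm genes had the other sign in all strains but Mito 2 copies. Of 33, 22 were negative in Mito 1 copy and 8 in NLS 2 copies. In NLS 1 copy 24 were negative and in Cyto 1 copy 22, and none was positive in any of these strains. In Mito 2 copies 2 were negative and 1 positive, with 30 not past the threshold. As 6.09% of all genes were negative there, Mito 2 copies did not show the other sign. The part of the testis and sperm genes was not tested. The 5 contrasts share the w1118 libraries.

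Sfp78E (3L, 21683098 to 21684042) had a positive interaction in all 5 strains. Its 3 libraries at 29 °C held 58.3, 52.0 and 60.1 TPM in Mito 2 copies, 65.1, 66.6 and 65.0 in Mito 1 copy and 53.7, 62.0 and 65.2 in NLS 2 copies. They held 53.9, 62.8 and 63.8 TPM in NLS 1 copy and 59.8, 65.8 and 58.6 in Cyto 1 copy, against 17.4, 17.7 and 19.3 TPM in w1118. At 29 °C all w1118 libraries lay far below all others.

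At 18 °C the order was not the same. Sfp78E there held 87.5, 96.8 and 86.3 TPM in Mito 2 copies, 115.1, 108 and 105 in Mito 1 copy, 98.4, 101 and 104 in NLS 2 copies, 114.7, 116 and 119.5 in NLS 1 copy and 99.8, 97.8 and 100.3 in Cyto 1 copy, against 111, 123 and 119 TPM in w1118. Mito 2 copies, NLS 2 copies and Cyto 1 copy lay below all w1118 libraries, and Mito 1 copy and NLS 1 copy overlapped with them. The interaction was 1.68 ± 0.10 (NLS 1 copy) to 1.97 ± 0.10 (Mito 2 copies) on the log2 scale (SE, largest adjusted p = 5.61e-17). Averaged over temperatures Sfp78E was higher than in w1118 by 0.59 to 0.74, and at 18 °C alone the differences ran from -0.38 to -0.01. It overlaps CG11248 and lncRNA:CR43978 on the opposite strand, and the interaction of CG11248 ran from -0.08 to 0.09, with none past the threshold.

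Acp54A1 (2R, 17133445 to 17133750), which encodes a peptide of 46 codons, changed sign between strains. At 29 °C it held 1927, 1474 and 1685 TPM in Mito 2 copies, 1364, 1249 and 1275 in Mito 1 copy, 1851, 1853 and 3189 in NLS 2 copies, 1104, 976 and 1413 in NLS 1 copy and 675, 622 and 641 in Cyto 1 copy, against 762, 857 and 673 TPM in w1118. At 18 °C it held 859, 1211 and 819 TPM in Mito 2 copies, 1079.9, 954 and 536 in Mito 1 copy, 879, 938 and 874 in NLS 2 copies, 556, 435 and 719.8 in NLS 1 copy and 729, 786 and 856 in Cyto 1 copy, against 1944, 1822 and 1772 TPM in w1118. So w1118 was above all other libraries at 18 °C, while at 29 °C the 4 Mito and NLS strains lay above it.

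Within strains, Acp54A1 at 29 °C relative to 18 °C rose by 0.83 in Mito 2 copies, 0.66 in Mito 1 copy, 1.31 in NLS 2 copies and 1.04 in NLS 1 copy on the log2 scale. It differed by -0.29 in Cyto 1 copy, which did not pass, and fell by 1.28 in w1118. The interaction was 2.11, 1.94, 2.58, 2.32 and 0.99 in Mito 2 copies, Mito 1 copy, NLS 2 copies, NLS 1 copy and Cyto 1 copy (SE 0.27 each, largest adjusted p = 0.00458 in Cyto 1 copy). Averaged over temperatures it was lower than in w1118 in Cyto 1 copy (-1.02), NLS 1 copy (-0.68) and Mito 1 copy (-0.30, a call that ended in 1 of 18 fits with 1 library left out, adjusted p = 0.0797), but at 29 °C alone it was higher in NLS 1 copy (0.60) and Mito 1 copy (0.77). Its difference between NLS 1 copy and Cyto 1 copy was -0.50 at 18 °C alone.

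**Figure D5:**
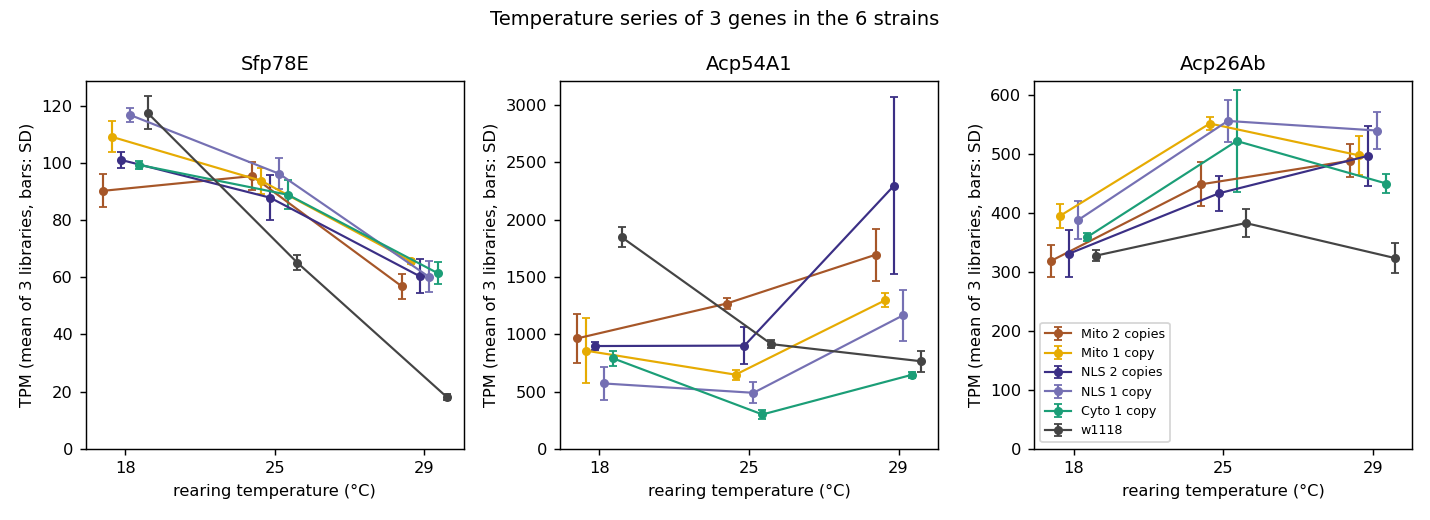
TPM (vertical axis, mean of 3 libraries with SD) of Sfp78E, Acp54A1 and Acp26Ab at the 3 rearing temperatures in °C (horizontal axis) in the 6 strains. Sfp78E at 29 °C averages 18.1 TPM in w1118 and 56.8 to 65.5 TPM in the others. Acp54A1 at 29 °C is below its 18 °C mean in w1118 and above it in the Mito and NLS strains. In Mito 1 copy, NLS 1 copy and Cyto 1 copy its mean is lowest at 25 °C.

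Acp26Ab also had a positive interaction in all 5 strains, at 0.64 in Mito 2 copies, 0.35 in Mito 1 copy, 0.61 in NLS 2 copies, 0.50 in NLS 1 copy and 0.35 in Cyto 1 copy. Its 3 libraries at 29 °C held 516, 461 and 487 TPM in Mito 2 copies and 303, 351 and 315 TPM in w1118, and at 18 °C 294, 313 and 348 TPM in Mito 2 copies and 336, 328 and 317 TPM in w1118. The groups were apart at 29 °C and overlapped at 18 °C. Sfp24Ba had a negative interaction in Mito 2 copies (-1.65) and NLS 2 copies (-1.62), where it fell by 2.64 and 2.61 on the log2 scale at 29 °C relative to 18 °C, against 0.99 in w1118. Its interaction in the other 3 strains ran from -0.23 to -0.09 and did not pass.

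Among the abundant genes, Sfp87B (-0.55) and Sfp60F (-0.61) had negative interactions in Mito 2 copies, and Sfp87B (-0.33) in NLS 2 copies. Acp53Ea had positive ones in Mito 2 copies (0.40) and NLS 2 copies (0.41), and Acp98AB in Mito 1 copy (0.91). The other largest negative interactions were Sfp24Bc in Mito 2 copies (-1.08) and NLS 2 copies (-0.60), Sfp70A4 (-0.63) and Sfp26Ac (-0.48) in NLS 1 copy, and Sfp26Ac (-0.41) and Sfp33A1 (-0.34) in Cyto 1 copy. With 1 library left out the calls of Acp53Ea, Acp98AB, Sfp26Ac and Sfp33A1, and in NLS 2 copies those of Sfp87B and Sfp24Bc, ended in 3 to 8 of 12 fits.

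Other genes of the male tract, outside the name pattern, were read from lists. Of 30 other seminal protein genes, 21 fell and 6 rose at 29 °C relative to 18 °C, with a median log2 change of -0.39. Among all genes tested, 34.9% fell and 42.9% rose. The serpin gene Spn28B fell by 1.11 (adjusted p = 3.42e-30) and Mst57Db, a male-specific gland transcript, by 1.32 (adjusted p = 1.02e-26). SP, the sex peptide that switches the female to egg laying and refusal of males, fell by 0.53. In NLS 1 copy against Cyto 1 copy 22 of the 30 rose and 1 fell (9.51% and 22.6% of all genes). In Mito 1 copy against Cyto 1 copy 22 rose and none fell (9.69% and 16.8% of all genes). Against w1118 the counts of higher and lower genes were 12 and 7 in Mito 2 copies, 17 and 4 in Mito 1 copy, 17 and 6 in NLS 2 copies, 20 and 4 in NLS 1 copy and 8 and 12 in Cyto 1 copy. Shares of all genes tested in these comparisons were 19.6% to 31.1% higher and 35.3% to 41.0% lower. Spn77Bb, another serpin gene, was higher by 1.28 in Mito 1 copy (adjusted p = 1.04e-21), and Obp56i, of the odorant-binding protein family, by 0.92 in Mito 2 copies (adjusted p = 1.53e-20).

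Of 6 genes of the ejaculatory duct and bulb, 2 fell, 2 rose and 2 did not pass at 29 °C relative to 18 °C. In this comparison 34.9% of all genes tested fell and 42.9% rose. The ejaculatory bulb protein genes EbpII (log2 -1.41) and Ebp (-1.08) fell, and Dup99B, a duct peptide related to sex peptide, differed by -0.05 and did not pass. Against w1118, Gld, glucose dehydrogenase, was lower in Cyto 1 copy (log2 -0.49), and the esterase gene Est-6 was higher in Mito 1 copy (0.48). Among 10 regulators, which include paired (prd), a transcription factor needed to form the glands, 6 fell and none rose at 29 °C relative to 18 °C. The juvenile hormone receptor genes gce (log2 -0.67) and Met (-0.23) had the smallest adjusted p. Against w1118 the counts of higher and lower regulators were 1 and 3 in Mito 2 copies, 2 and 3 in Mito 1 copy, 3 and 2 in NLS 2 copies, 6 and 1 in NLS 1 copy and 4 and 2 in Cyto 1 copy. Over all genes tested, 19.6% to 31.1% were higher and 35.3% to 41.0% lower. Among the regulators dsx, which sets sexual differentiation, differed most clearly, at -0.40 in Mito 2 copies (limma, adjusted p = 9.37e-09). Rab19 was the 1 regulator that fell in NLS 1 copy (-0.19).

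Markers of other cells had other counts. Of 33 testis and sperm genes, 17 rose and 3 fell at 29 °C relative to 18 °C with a median of 0.08, among them mia (log2 1.30) and topi (-0.77). In this comparison 42.9% of all genes tested rose and 34.9% fell. The summed level of the 33 genes ran from 13229 to 23150 TPM at 29 °C (mean 17419) and from 15273 to 19063 TPM at 18 °C (mean 16726). Against w1118, 18 fell in Mito 2 copies, 30 in Mito 1 copy, 30 in NLS 2 copies, 31 in NLS 1 copy and 29 in Cyto 1 copy, with 1 or 2 higher in each. Shares of all genes tested were 35.3% to 41.0% lower and 19.6% to 31.1% higher. The summed level averaged 18415 TPM in Mito 2 copies, 16213.5 in Mito 1 copy, 15079.8 in NLS 2 copies, 14491 in NLS 1 copy and 16328 in Cyto 1 copy, against 19417 TPM in w1118 (n = 9 each). The clearest were Mst84Db (log2 2.03) and Taf12L (-1.72) in Mito 2 copies. Of 11 Y-linked and other male genes, 8 rose and 1 fell at 29 °C relative to 18 °C, with Pp1-Y2 (log2 0.65) and kl-2 (0.46) the clearest. Against w1118, 6 to 8 of the 11 fell in each strain, with CCY at -0.77 in Cyto 1 copy. Pp1-Y1 held 3.68 to 7.34 TPM in Cyto 1 copy and was listed at 0 in every library of the other 5 strains, so no fold is given.

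Of the female genes, 9 passed the filter. At 29 °C relative to 18 °C 4 rose and 2 fell, where 42.9% of all genes tested rose and 34.9% fell. The yolk genes Yp3 (log2 1.06) and Yp1 (0.84) had the smallest adjusted p. Against w1118, 3 rose and 2 fell in Mito 2 copies, 3 and 1 in Mito 1 copy, 2 and 2 in NLS 2 copies, 3 and 1 in NLS 1 copy and 6 and 1 in Cyto 1 copy. Over all genes tested, 19.6% to 31.1% rose and 35.3% to 41.0% fell. The eggshell gene Cp15 was the 1 that fell in Cyto 1 copy (-2.32), and Cp7Fb rose by 1.16 in Mito 2 copies. The part of these other cells in the seminal gene differences was not tested.

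Acp1 and Acp65Aa, which encode adult cuticle proteins, had low values. Acp1 held 2.24, 1.28 and 1.89 TPM at 18 °C in Mito 2 copies and 2.81, 4.59 and 2.76 TPM in w1118, and 0.901 ± 1.01 TPM over all libraries (SD, n = 54). It fell by 1.28 on the log2 scale at 29 °C relative to 18 °C (adjusted p = 2.51e-18). Acp65Aa averaged 0.446 ± 0.283 TPM (SD, n = 54) and rose by 0.20 (adjusted p = 0.00783). Of the 24 adult cuticle genes listed with them, 18 were tested, and 9 fell and 5 rose at 29 °C relative to 18 °C. In this comparison 34.9% of all genes tested fell and 42.9% rose. Cpr72Ec (log2 1.91) and Cpr62Bb (-1.18) were the clearest. Against w1118, TwdlP (-3.66 in Cyto 1 copy) and Cpr49Ae (1.31 in NLS 2 copies) were the clearest.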

How the data were processed

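The authors deposited 1 table of TPM values for 13926 genes in 54 libraries. TPM divides reads by transcript length and by the total of the library, so a value is relative to all other genes. Per the labels' protocols, whole flies were extracted with TRIzol and a TruSeq RNA kit (Sample Prep v2) was used for the libraries. Genome builds BDGP6 and dm6 are named in the submitters' processing notes. How reads were aligned and counted, and how many there were, is not given in the sources used here, so no counting interval was computed.

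Libraries were grouped by strain and temperature. The filter kept the 12555 genes that reached 1 TPM in 3 or more libraries. A model with 1 mean for each of the 18 groups was fitted to log2(TPM + 1) with limma 3.58.1 in R 4.3.3 (moderated two-sided test, intensity trend, 36 residual degrees of freedom), with Benjamini-Hochberg adjustment over all genes within each of 18 comparisons, with a threshold of 0.05. Adding 1 understates the changes of low genes. The procedure was tested on simulated data. Strain, copy number and form comparisons average the 3 temperatures, and temperature comparisons average the 6 strains. Positions and coding lengths come from the Ensembl annotation of BDGP6, in which all 47 genes matched.

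The genes named are the largest rises and falls past the threshold in each comparison, the 6 most abundant genes where they passed, genes with opposite calls in different strains and, from each further list, those with the smallest adjusted p. The genes and lists were chosen with earlier results of these data known. Same-numbered libraries were not paired: in 1 of 48 pairs of groups did every correlation of deviations exceed 0.1. Alternatives changed the pseudocount, filter, scaling, replicate block, libraries and strains or temperatures in the fit.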

Additional observations from a re-analysis of the deposited data

Results flagged for a closer look

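Each result here is a change between 29 °C and 18 °C in a strain that differed, by the interaction test of limma with Benjamini-Hochberg adjustment, from the same change in w1118. Values are log2 differences, the 5 strains share the w1118 libraries, and each group has 3 libraries.

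Sfp78E and Acp54A1 differed in all 5 strains. For Sfp78E the difference was 1.97 in Mito 2 copies (adjusted p = 3e-19), 1.91 in Mito 1 copy (1.01e-18), 1.89 in NLS 2 copies (1.43e-18), 1.68 in NLS 1 copy (5.61e-17) and 1.94 in Cyto 1 copy (5.1e-19). For Acp54A1 it was 2.11 in Mito 2 copies (1.31e-07), 1.94 in Mito 1 copy (8.24e-07), 2.58 in NLS 2 copies (1.14e-09), 2.32 in NLS 1 copy (2.24e-08) and 0.99 in Cyto 1 copy (0.00458).

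Several genes passed in both 2-copy strains. Sfp24Ba had -1.65 in Mito 2 copies (2.13e-07) and -1.62 in NLS 2 copies (2.57e-07), and Sfp24Bc had -1.08 in Mito 2 copies (0.000129) and -0.60 in NLS 2 copies (0.03). Sfp87B had -0.55 in Mito 2 copies (0.00112) and -0.33 in NLS 2 copies (0.0484). Acp53Ea had 0.40 in Mito 2 copies (0.0327) and 0.41 in NLS 2 copies (0.0239).

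The others stood in 1 or 2 strains. Sfp60F had -0.61 in Mito 2 copies (0.00104), Acp98AB 0.91 in Mito 1 copy (0.0244) and Sfp70A4 -0.63 in NLS 1 copy (0.00722). Sfp26Ac had -0.48 in NLS 1 copy (0.0255) and -0.41 in Cyto 1 copy (0.047), and Sfp33A1 -0.34 in Cyto 1 copy (0.0224).

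Leaving out 1 library ended some of these calls. For Acp53Ea this was so in 7 of 12 fits in Mito 2 copies (adjusted p up to 0.162) and 5 of 12 in NLS 2 copies (0.0847). In NLS 2 copies Sfp87B was lost in 7 of 12 (0.188) and Sfp24Bc in 4 of 12 (0.104). Acp98AB in Mito 1 copy was lost in 3 of 12 (0.11). Sfp26Ac was lost in 4 of 12 in NLS 1 copy (0.107) and 8 of 12 in Cyto 1 copy (0.165), and Sfp33A1 in Cyto 1 copy in 4 of 12 (0.0726). The other calls named here were kept in all 12 fits.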

How the results depend on the processing

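The pseudocount of 0.1 changed none of the calls on the 135 named values, and the replicate block none either, with 44 seminal genes called at 29 °C against 18 °C under the replicate block and no count moved by over 1.5 times. Quantile normalization ended 6 of the 135 calls and median-ratio scaling 5, without a reversal. With median-ratio scaling the interaction was called for 15 genes in NLS 2 copies, 8 in Mito 1 copy and 6 in Cyto 1 copy, against 23, 13 and 13, where 24.3%, 28.8% and 32% of all genes were called. Leaving out 1 library at a time ended 75 of 2844 calls, spread over 13 named values, and reversed none; the interaction counts ran from 14 to 24 in NLS 2 copies (lowest without NLS 2 copies at 18 °C replicate 1) and from 7 to 17 in Mito 1 copy (lowest without w1118 at 29 °C replicate 1). TPM give no depth, which leaves the counting error of low genes such as Sfp79B unknown.

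Single temperatures, with 3 libraries against 3, changed more, and the cause was not tested. Shares of all genes called are in brackets. At 18 °C alone 19 genes were called in NLS 1 copy against w1118 (48.4%), 13 in Mito 1 copy against Cyto 1 copy (13.2%) and 6 in Mito 1 copy against NLS 1 copy (15.1%). At 25 °C alone 19 were called in NLS 2 copies against w1118 (48.9%), 10 in Mito 2 copies against Mito 1 copy (19.2%), 8 in NLS 2 copies against NLS 1 copy (10%) and 14 in Mito 1 copy against Cyto 1 copy (12.2%). At 29 °C alone 18 were called in NLS 1 copy against Cyto 1 copy (13.4%), 14 in Mito 1 copy against Cyto 1 copy (8.67%) and 0 in Mito 1 copy against NLS 1 copy (3.44%; limma, 4 at an unadjusted p under 0.05). At 25 °C against 18 °C, 20 were called in Mito 2 copies alone (33.5%; 13 higher and 7 lower) and 23 in NLS 1 copy alone (33.9%; 3 higher and 20 lower).

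Signs turned as follows (log2). At 18 °C alone Sfp78E against w1118 was -0.38 in Mito 2 copies, -0.11 in Mito 1 copy, -0.21 in NLS 2 copies, -0.0073 in NLS 1 copy and -0.24 in Cyto 1 copy. Also at 18 °C alone, Sfp70A4 was -0.15 (Mito 2 copies against Mito 1 copy), Sfp33A3 -0.0278 (NLS 2 copies against NLS 1 copy) and Acp54A1 -0.50 (NLS 1 copy against Cyto 1 copy). At 25 °C alone Sfp87B was 0.0396 and Sfp60F 0.0663 (Mito 2 copies against Mito 1 copy), and Sfp79B 0.27 (NLS 1 copy against w1118). At 29 °C alone Acp54A1 was 0.77 in Mito 1 copy and 0.60 in NLS 1 copy against w1118, Acp76A -0.0886 in Mito 2 copies against w1118 and Acp98AB 0.16 in Mito 1 copy against NLS 1 copy. At 29 °C against 18 °C within 1 strain, Acp98AB was 0.0488 in Mito 1 copy, Acp54A1 -0.29 in Cyto 1 copy and -1.28 in w1118, and Acp26Ab -0.0214 and Sfp93F -0.0628 in w1118. At 29 °C against 25 °C Acp98AB was 0.56 in Mito 1 copy, Sfp79B -0.56 in NLS 1 copy and Acp54A1 -0.26 in w1118, and at 25 °C against 18 °C Acp54A1 was 0.42 in Mito 2 copies.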
